A study of Arabidopsis thaliana with 12 samples.

Results

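The arrays numbered biological replicate 1, called set 1 here, were compared with the arrays numbered 2 and 3, called sets 2 and 3. Set 1 holds 4 of the 12 arrays of the series, and sets 2 and 3 hold the other 8; an array belongs to a set by the replicate number in its label alone, and no measured value entered the choice. The study measured transcripts in 5-day-old Arabidopsis thaliana seedlings of the accession Col-0 after ionising radiation. Its 4 groups of 3 arrays are irradiated wild type, untreated wild type, irradiated gmi1-1 and untreated gmi1-1, and each group gives 1 array to each set. The gmi1-1 seedlings come from a single T-DNA insertion line (SALK_036931) in GMI1, a gene that wild type seedlings induce after gamma irradiation. Irradiated seedlings received 100 Gy of gamma rays and were harvested 1.5 h later. All seedlings were grown on plates of Murashige and Skoog medium under continuous light. The labels call the replicates biological, but they do not say whether equal numbers share a plate, a day, a medium or a hybridisation, so the p-values measure the spread between these arrays only.

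Several groups of genes recur below, and their known roles are given here as background. Copper is the cofactor of plastocyanin, of Cu/Zn superoxide dismutases and of blue copper proteins and laccases in the cell wall. Plants that are short of copper make more of the uptake carriers and fewer of the dispensable copper proteins, partly through microRNAs that cut their transcripts. Root hairs are tip-growing outgrowths of root epidermal cells, built with extensins, proline-rich and arabinogalactan proteins, expansins, xyloglucan-remodelling enzymes and peroxidases. Heat shock proteins are chaperones that seedlings make when warmed or otherwise stressed, and the sulfate assimilation genes rise when seedlings are short of sulfur.

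The values are the authors' GCRMA values on a log2 scale, on which 1 unit is a 2-fold change, for 16947 loci. Array medians lay between 4.51 and 4.57 in set 1 and between 4.23 and 4.81 in sets 2 and 3. The interquartile range was 5.29 to 5.45 in set 1 and 5.28 to 5.83 in sets 2 and 3, apart from irradiated gmi1-1 replicate 3 at 4.70, whose GAPDH 5′ probe set also lay 1.30 below the middle one. GMI1 stood at 9.97 on the irradiated wild type array of set 1 and at 1.44 to 2.53 on the other arrays of set 1. BRCA1, a DNA repair gene strongly induced by radiation in this tissue, had a level of 10.54 in set 1's library labelled untreated gmi1-1, against 2.70 and 2.90 in the untreated gmi1-1 libraries of sets 2 and 3. That library, labelled gmi1-1 untreated replicate 1, goes against its label, and it is close to the irradiated gmi1-1 library of set 1. Irradiated minus untreated, 58 loci were higher and 62 lower by over 1 log2 unit between the gmi1-1 libraries of set 1, against 490 and 1073 between those of set 2. The wild type arrays of set 1 carry no such mark, with BRCA1 at 11.38 when irradiated and 2.78 when untreated. The counts and the leading genes are therefore also given for the 6 wild type arrays alone.

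Set 1 stood apart from the other arrays on 1 principal component. The second principal component held 17% of the variance over 9889 loci that reached a log2 value of 4 on at least 3 arrays, and it separated set 1 from the other sets. All 4 arrays of set 1 had positive coordinates on it and all 8 others had negative ones. By loci differing by over 1 log2 unit, replicate 1 was the most distant array in untreated seedlings only. In untreated wild type, replicate 1 differed from replicates 2 and 3 at 921 and 984 loci, and these 2 from each other at 47. In irradiated wild type the same counts were 1245, 855 and 1171. In gmi1-1 they were 1364, 1270 and 121 when labelled untreated, and 1196, 2204 and 1722 when irradiated.

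**Figure D1:**
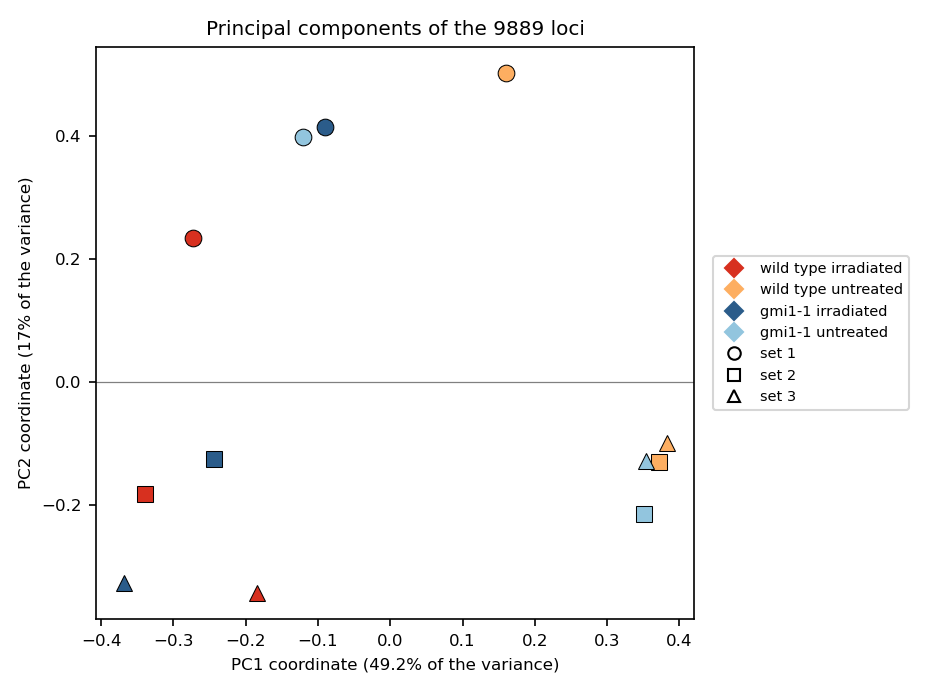
Principal component coordinates of the 12 arrays over 9889 loci, with PC1 (49.2% of the variance) across and PC2 (17%) up; colour gives the group and marker shape the set. The 4 circles of set 1 lie above 0 on PC2 and the squares and triangles of sets 2 and 3 lie below it.

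When each array was expressed as its deviation from its group's mean, the arrays of set 1 deviated together across groups. The 6 pairs of set 1 arrays gave correlations across loci of 0.139 to 0.666 with a median of 0.358, against medians of 0.062 for pairs within set 2 and 0.296 for pairs within set 3. Pairs of arrays with different numbers had a median of -0.160. Loci are not independent, and the deviations of 1 group sum to 0, so these values are a description. In the wild type the differences of set 1 from the other sets correlated at 0.485 between irradiated and untreated seedlings.

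Of the total sum of squares over the 9889 loci, the 4 groups took 48.1%, the contrast of set 1 with the others took 17.5% and the contrast of set 2 with set 3 took 5.37%. In the wild type alone these shares were 55.8%, 21.5% and 9.43%. Replicate 1 lay outside both other replicates on the same side in all 4 groups at 1308 loci (13.2%), replicate 2 did so at 614 loci (6.21%) and replicate 3 at 454 loci (4.59%). Of the 1308 loci of replicate 1, 462 were above and 846 below.

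In a limma fit with the 4 groups as covariates, 707 of the 9889 loci (7.15%) differed between set 1 and sets 2 and 3 at an adjusted p under 0.05. Among them 161 (1.63%) were higher in set 1 and 546 (5.52%) lower, 320 of them by at least 1 log2 unit, beside a median difference of -0.07 over all loci. The direction of this split rests on the scaling of the arrays: after quantile normalization 488 loci were higher and 483 lower (50.3% higher, against 22.8% with the values as deposited), and after median centring 525 were higher and 415 lower (55.9% higher). The 2 scalings moved the median of all loci by 0.10 and 0.13. None of the 30 genes named from this fit changed sign under either scaling. In the wild type alone all 30 kept their sign but 21 were not called, and the 9 that were called are COPT2, ZIP2, PDF2.1, YSL2, AOS, BCB, CSD2, NHL1 and sks15.

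In the wild type alone the fit called 44 loci (0.445%), with 12 (0.121%) higher and 32 (0.324%) lower in set 1, and 2071 loci had an unadjusted p under 0.05. All 707 loci called with 12 arrays had the same sign in the wild type alone, 645 of them with an unadjusted p under 0.05, but these 6 arrays are among the 12 that chose the loci. The 6 gmi1-1 arrays alone gave 13 calls (0.131%), 4 (0.0404%) higher and 9 (0.091%) lower in set 1. In the wild type alone, 41 of the 44 loci called were also called with 12 arrays. Without both replicate 1 libraries of gmi1-1 the fit called 199 loci (2.01%), 164 of which were among the 707. Here and below, that fit and the wild type alone give the same differences, those of the wild type. They differ only in the estimate of the spread, so they are 1 check. The counts rest on single arrays: the 12-array count was 206 without untreated wild type replicate 1, 239 without the library of set 1 that goes against its label, 321 to 404 without any other single untreated array, 389 without irradiated wild type replicate 1, and 1416 without irradiated gmi1-1 replicate 3.

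**Figure D2:**
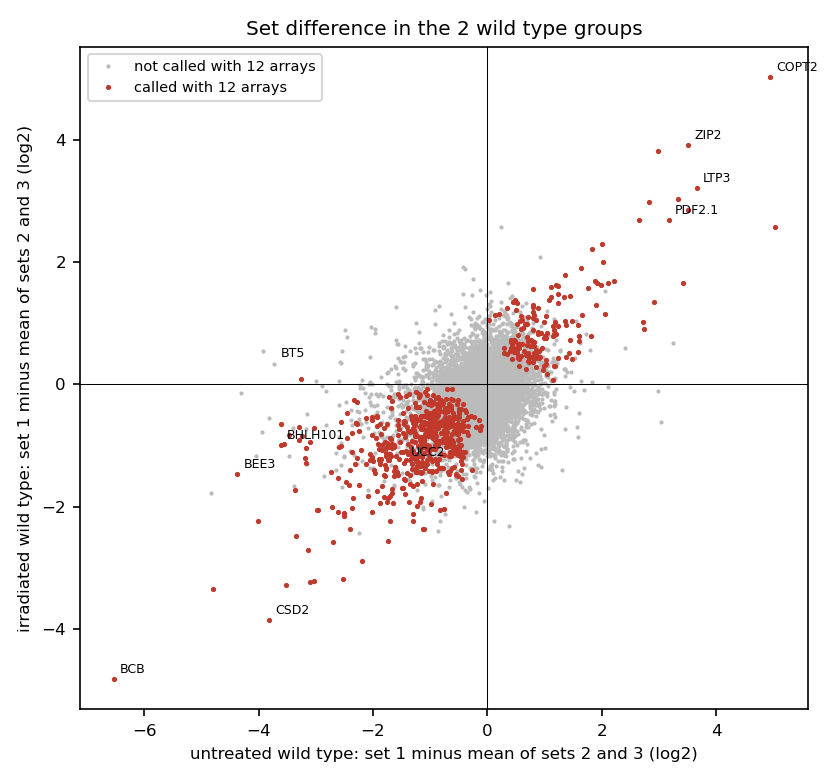
Each point is 1 of 9889 loci, placed by its difference between set 1 and the mean of sets 2 and 3 (log2) in untreated wild type (across) and irradiated wild type (up); red points were called with 12 arrays. COPT2, ZIP2, LTP3 and PDF2.1 lie at the upper right and BCB and CSD2 at the lower left, and the correlation over all loci was 0.485.

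The clearest differences were in genes of copper transport and copper proteins. COPT2, a high-affinity copper uptake carrier of the plasma membrane, was at 7.89 in irradiated wild type, 8.21 in untreated wild type, 7.91 in irradiated gmi1-1 and 8.37 in untreated gmi1-1 of set 1. In sets 2 and 3 it ranged from 1.80 to 3.57 with a median of 3.12. The arrays of set 1 lay far above all others, whatever the genotype or treatment. COPT2 was higher in set 1 by 5.18 ± 0.30 (SE; limma adjusted p = 8.28e-06) with 12 arrays and by 4.99 ± 0.20 (adjusted p = 0.00172) in the wild type alone. All arrays of sets 2 and 3 were below the filter's log2 value of 4, so COPT2 was tested only through set 1. Its p-values are therefore a description.

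CSD2, the chloroplast Cu/Zn superoxide dismutase, which removes superoxide, showed the opposite. It stood at 8.26, 8.63, 8.34 and 8.32 in set 1, in the same order of groups, against 12 to 12.51 in sets 2 and 3, with a median of 12.21. All 4 arrays of set 1 were lower, and the gap was many times the spread within either side. CSD2 fell by 3.84 ± 0.12 in set 1 (SE; limma adjusted p = 4.93e-08), the smallest adjusted p of all loci, and the wild type arrays alone gave a difference of -3.84 (adjusted p = 0.00172). FSD2 and FSD3, iron superoxide dismutases of the chloroplast, were not called, with differences of 0.52 (adjusted p = 0.072) and 0.27 (adjusted p = 0.50). They come from a list of superoxide dismutases drawn up after values had been seen.

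BCB, a blue copper protein of the cell surface, had 6.84, 2.54, 4.23 and 5.06 in set 1, against 8.73 to 11.98 in sets 2 and 3. In sets 2 and 3 it was higher in irradiated seedlings (11.52 to 11.98) than in untreated ones (8.73 to 10.44), and all 4 arrays of set 1 were below every array of the other sets. The difference was -5.98 ± 0.40 (SE; adjusted p = 2.27e-05), and the wild type alone gave -5.68 (adjusted p = 0.0129). ZIP2, a metal carrier of the ZIP family, had 8.46 to 8.94 in set 1 and 4.04 to 5.59 in sets 2 and 3, a difference of 3.70 ± 0.26 (adjusted p = 3.44e-05; wild type alone 3.71, adjusted p = 0.0106). YSL2, which carries metal complexes of nicotianamine, had 8.61 to 8.80 in set 1 and 5.32 to 6.37 in sets 2 and 3, a difference of 2.81 ± 0.20 (adjusted p = 3.67e-05; wild type alone 2.67, adjusted p = 0.0129). Set 1 did not overlap with the other sets in any of these 3 genes, which held at 527 of the 9889 loci (5.33%).

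A list of genes for copper uptake and handling was drawn up after these values had been seen, so its counts describe and test nothing. Of its 12 members that passed the filter on low values, 5 were higher in set 1 and none lower, where 1.63% of all loci were higher, with a median difference of 0.58. Besides COPT2, ZIP2 and YSL2, these were CCH, a copper chaperone, at 13.09 to 13.24 in set 1 and 11.85 to 12.45 in sets 2 and 3 (difference 0.90, adjusted p = 0.00538), and YSL3, another nicotianamine-metal carrier (difference 1.49, adjusted p = 0.0159). COPT1 and COPT5, other copper carriers, RAN1 and HMA5, copper-pumping ATPases, and the chaperone gene AT1G66240 were not called, with differences between -0.42 and 0.32. In the wild type alone COPT2, ZIP2 and YSL2 were called. The list's mean level was 8.55 to 8.71 in set 1 and 6.70 to 7.56 in sets 2 and 3.

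Of 10 copper proteins tested, in a list also drawn up afterwards, 4 were lower in set 1 and none higher, where 5.52% of all loci were lower, with a median difference of -0.72. UCC2, a uclacyanin of the cell wall, had 9.77 to 10.23 in set 1 and 11.25 to 11.87 in sets 2 and 3, a difference of -1.54 (adjusted p = 0.000599; wild type alone -1.37, adjusted p = 0.0395). ARPN, a plantacyanin, had 3.81 to 4.59 in set 1 and 4.98 to 6.97 in sets 2 and 3, a difference of -2.17 (adjusted p = 0.00162). IRX12, a laccase, had 3.26 to 3.64 in set 1 and 4.65 to 6.01 in sets 2 and 3, a difference of -1.54 (adjusted p = 0.00193), and passed the filter only through those sets. These 3 genes, like BCB, were below all 8 other arrays on all 4 arrays of set 1. The 2 plastocyanin genes, whose product carries electrons to photosystem I, were not called: PETE1 differed by 0.67 (adjusted p = 0.061) and DRT112 by 0.05 (adjusted p = 0.91). PETE1 nonetheless lay above all 8 other arrays on all 4 arrays of set 1, at 11.38 to 11.78 against 10.11 to 11.15. After quantile normalization and after median centring, 1 gene of this list was called higher in set 1. SPL7, CSD1, CCS and FSD1 were not analysed here.

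**Figure D3:**
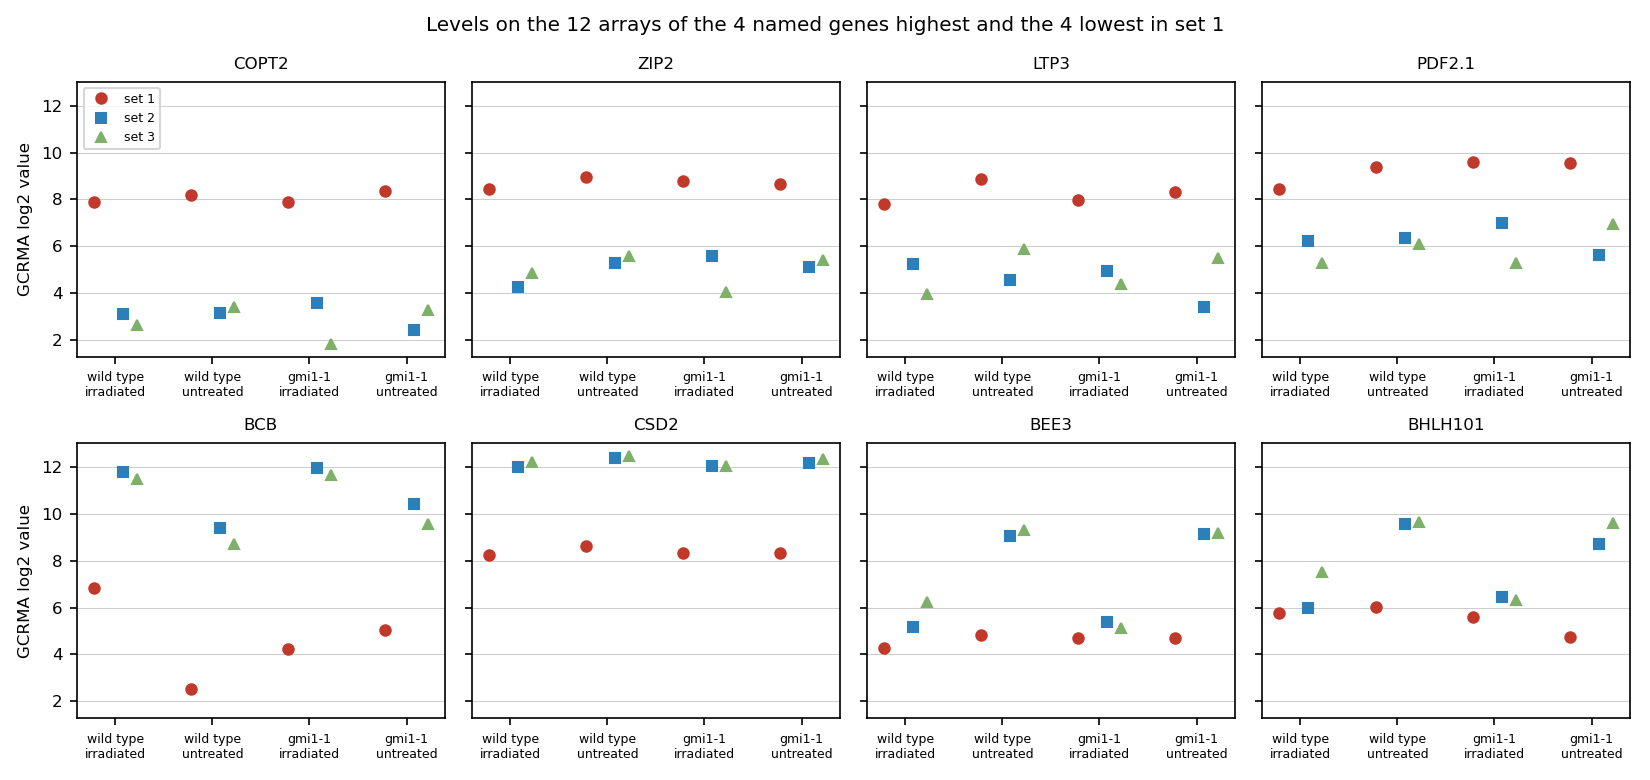
GCRMA log2 values (vertical axis, shared) of the 4 named genes highest and the 4 lowest in set 1, by group; within a group, red circles are set 1, blue squares set 2 and green triangles set 3. COPT2, at 7.89 to 8.37 in set 1 and 1.80 to 3.57 elsewhere, and CSD2, at 8.26 to 8.63 and 12 to 12.51, do not overlap in any group, while for BEE3 and BHLH101 the sets lie farther apart in untreated seedlings, with an interaction that passed the test for BEE3 and not for BHLH101.

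The other named genes that rose in set 1 were of mixed roles. LTP3, a lipid transfer protein, had 7.80, 8.88, 7.97 and 8.31 in set 1 and 3.41 to 5.89 in sets 2 and 3, a difference of 3.51 ± 0.40 (adjusted p = 0.00105; wild type alone 3.44, adjusted p = 0.059). PDF2.1, a plant defensin, had 8.46, 9.40, 9.58 and 9.56 in set 1 and 5.29 to 6.98 in sets 2 and 3, a difference of 3.15 ± 0.34 (adjusted p = 0.000775; wild type alone 2.93, adjusted p = 0.0367). The 4 arrays of set 1 lay above all 8 others in both genes. CYP82C4, a cytochrome P450 of the coumarin pathway used in iron uptake, had 5.38, 7.30, 4.59 and 5.37 in set 1 and 1.99 to 3.45 in sets 2 and 3. It was higher by 3.03 ± 0.45 (adjusted p = 0.00311), and the wild type alone gave 3.80 (adjusted p = 0.062). CYP82C4, like COPT2, passed the filter on low values only through set 1.

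The remaining genes named by size of the rise lay between 1.91 and 2.97 log2 units higher. They were CIPK20, a protein kinase (2.97), AACT1, an acyltransferase (2.60), MES18, of the methylesterase family (2.32), PP2-A8, of the phloem protein family (2.29), GPT2, a glucose 6-phosphate carrier of plastids (2.15), PRR7, a clock repressor (2.14), scpl31, of the carboxypeptidase-like family (2.1), GSTF14, a glutathione transferase (2.01), and AOS, allene oxide synthase of jasmonate synthesis (1.91). AOS had 9.09 to 9.90 in set 1 and 7.28 to 8.44 in sets 2 and 3 (adjusted p = 0.00105), and the wild type alone gave 1.79 (adjusted p = 0.0171). MES18 and GPT2 had arrays of set 1 within the range of the others, while the other 7 did not. AACT1 was below the filter's log2 value of 4 on all arrays of sets 2 and 3. There scpl31 and GSTF14 reached it on fewer than the 3 arrays that the filter needs. These genes thus passed the filter only through set 1. Without single arrays the calls for MES18, GPT2 and scpl31 were lost, with adjusted p-values of up to 0.11, 0.12 and 0.051 in a limma fit.

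Genes of root hairs and of root epidermal walls were lower in set 1. All 14 root and root hair markers listed are on the array and 11 passed the filter on low values; of these 7 fell and none rose, where 5.52% of all loci were lower, and the median difference of the list was -1.02, against -0.07 over all loci. EXPA7, EXPA18 and TIP2;3 lay below the filter's log2 value of 4 on all arrays of set 1 and passed it only through sets 2 and 3, so the filter partly fixed this count and it is a description. The list's mean level was 5.64 to 6.03 in set 1 and 6.15 to 7.32 in sets 2 and 3. Fewer cells of a type and less RNA per cell cannot be told apart in RNA of whole seedlings.

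XTH14, a xyloglucan endotransglucosylase of root hairs and the elongating root, had 7.53, 6.66, 6.90 and 6.86 in set 1, against 8.63 to 9.83 in sets 2 and 3, with a median of 9.09. All 4 arrays of set 1 were below all others, and XTH14 fell by 2.18 ± 0.22 (limma adjusted p = 0.000624; wild type alone -1.90, adjusted p = 0.055). PRP3, a proline-rich wall protein of root hairs, had 5.55, 6.18, 5.26 and 5.73 in set 1 and 6.32 to 9.04 in sets 2 and 3, a difference of -1.85 (adjusted p = 0.0049). The expansins EXPA18 and EXPA7, which loosen the walls of growing root hairs, differed by -1.53 (adjusted p = 0.0106) and -1.51 (adjusted p = 0.0175). MYB66, the WEREWOLF factor of non-hair cells, differed by -1.02 (adjusted p = 0.0113; wild type alone -1.35, adjusted p = 0.0395). SHV2, a COBRA-like protein that root hairs need, and TIP2;3, a root vacuolar aquaporin, differed by -0.86 (adjusted p = 0.0159) and -1.18 (adjusted p = 0.0231).

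The markers of other root tissues did not pass the test. PYK10, an abundant root glucosidase, was at 13.31 to 13.86 in set 1 and 13.18 to 13.75 in sets 2 and 3, a difference of 0.19 (adjusted p = 0.44). SHR and SCR, which pattern the ground tissue, differed by 0.02 (adjusted p = 0.97) and 0.01 (adjusted p = 0.98), and CASP1, of the endodermal Casparian strip, by -0.62 (adjusted p = 0.19). The levels of these 4 genes in set 1 overlapped with those in the other sets. The count of 7 became 3 without both gmi1-1 replicate 1 libraries and 1 in the wild type alone, where the median difference of the list was -0.91, and 2 with a filter at a log2 of 6, where it was -0.62.

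Several of the genes named by size of the fall encode wall proteins as well, and some of them have root hair in their name. RHS19, a root-hair-specific gene, had 7.16, 5.93, 5.87 and 6.15 in set 1 and 7.72 to 9.08 in sets 2 and 3, a difference of -2.23 ± 0.28 (adjusted p = 0.00164). AGP30 and AGP3, arabinogalactan proteins, differed by -2.19 (adjusted p = 0.00113) and -2.23 (adjusted p = 0.00477), and neither overlapped between the sets. EXT13, an extensin, and PRP1, a proline-rich protein, differed by -2.43 (adjusted p = 0.0114) and -2.33 (adjusted p = 0.0056), with the untreated wild type array of set 1 within the range of the irradiated arrays of the other sets. sks15, of the SKU5-similar family, had 3.51 to 3.86 in set 1 and 4.81 to 6.62 in sets 2 and 3, a difference of -2.14 (adjusted p = 0.00119). AGP3 and sks15 were below the filter's log2 value of 4 on all arrays of set 1 and passed it only through sets 2 and 3. EXT13 reached that value in set 1 only on the untreated wild type array, so it too passed only through sets 2 and 3. NHL1, related to a defence-signalling protein, had 5.68 to 6.51 in set 1 and 7.02 to 9.33 in sets 2 and 3, a difference of -2.26 (adjusted p = 0.0039).

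For the other genes named by size of the fall, the levels of untreated and irradiated arrays are given apart. XTH12, close in sequence to XTH14 and XTH13 so that probes may read several copies, had 4.23 and 3.23 on the untreated wild type and gmi1-1 arrays of set 1, against 7.20 to 8.58 on the untreated arrays of sets 2 and 3. On irradiated arrays it had 2.50 and 3.23 in set 1 and 3.28 to 4.08 in sets 2 and 3. RHS18, a root-hair-specific gene, BHLH101, an iron-deficiency transcription factor, and BEE3, a brassinosteroid-induced transcription factor, had 12-array differences of -2.25 (adjusted p = 0.0211), -2.46 (adjusted p = 0.0239) and -2.72 (adjusted p = 0.0171). RHS18 was below the filter's log2 value of 4 on all arrays of set 1 and passed it only through sets 2 and 3. XTH12 reached that value in set 1 only on the untreated wild type array, so it too passed only through sets 2 and 3. Whether the set difference depended on treatment was tested by an interaction term in the limma fit. It passed for BEE3 (adjusted p = 0.0397) and not for XTH12 (0.088), RHS18 (0.106) or BHLH101 (0.106). The term includes the library that goes against its label. The calls of these 4 genes were lost when single arrays were left out, with adjusted p-values of up to 0.14 for XTH12, 0.11 for RHS18, 0.12 for BHLH101 and 0.092 for BEE3.

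Heat shock genes were low in set 1, but not only there. Of 16 heat shock genes tested 7 fell and none rose, where 5.52% of all loci were lower, with a median difference of -0.71. HSP70, an inducible chaperone, had 8.88, 8.51, 8.28 and 8.66 in set 1, against 9.53 and 8.26 in the irradiated gmi1-1 and wild type arrays of set 2 and 10.63 to 11.84 on the other 6 arrays. HSP101, the chaperone that resolves protein aggregates, had 4.78 to 5.48 in set 1, against 5.32 and 4.79 on those 2 arrays of set 2 and 7.09 to 8.40 on the other 6. The irradiated arrays of set 2 were thus close to set 1 in both genes. HSP70 differed by -2.26 (adjusted p = 0.0285), HSP101 by -2.15 (adjusted p = 0.0474), HSP90.1, a cytosolic chaperone, by -2.00 (adjusted p = 0.0383), and the immunophilin gene AT5G48570 by -2.40 (adjusted p = 0.0374).

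HSFA7A and HSFB2A, heat shock factors, and CLPB4, a mitochondrial chaperone, made up the 7, with differences of -1.53 (adjusted p = 0.0247), -0.78 (adjusted p = 0.0421) and -0.87 (adjusted p = 0.0243). The mean of the 16 genes was 7.03 to 7.35 in set 1, 7.28 and 7.56 on the irradiated wild type and gmi1-1 arrays of set 2, and 8.19 to 8.56 on the other 6 arrays. The count was 10 without the irradiated arrays of set 2, which were themselves low in these genes. It was 0 without both gmi1-1 replicate 1 libraries, without either of the untreated arrays of set 1, without untreated wild type replicate 2 or 3, and in the wild type alone, where the median difference was -0.60. After quantile normalization it was 4 and after median centring 2.

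The sulfate assimilation and sulfur starvation genes had the same layout with larger differences. Their median difference was -1.31, and 9 of 10 were lower in set 1, but none of the 9 passed the test in the 12-array fit. APR2, an adenosine phosphosulfate reductase, had 10.43, 10.42, 10.62 and 10.50 in set 1, against 10.54 and 10.84 on the irradiated wild type and gmi1-1 arrays of set 2, 12.33 and 10.84 on those of set 3, and 12.04 to 12.36 on the untreated arrays of sets 2 and 3. The difference was -1.18 (adjusted p = 0.054). ATSDI1, a gene induced by sulfur deficiency, had 3.54 to 5.25 in set 1, 2.69 and 3.81 on the irradiated arrays of set 2, and 6.61 to 9.51 on the other 6 arrays, a difference of -2.46 (adjusted p = 0.21).

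SULTR2;1, a sulfate carrier of the vasculature, was the exception, at 7.67 to 8.06 in set 1 and 5.07 to 7.26 in sets 2 and 3, and rose by 1.45 (adjusted p = 0.0261). Without the irradiated arrays of set 2, all 9 of the other genes were lower in set 1 past the threshold and SULTR2;1 was higher. The arrays left out are those where the list was as low as in set 1 or lower, so this is a description. The mean of the 10 genes was 6.82 to 7.12 in set 1, 5.95 and 6.55 on the irradiated wild type and gmi1-1 arrays of set 2, and 7.60 to 9.38 on the other 6.

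**Figure D4:**
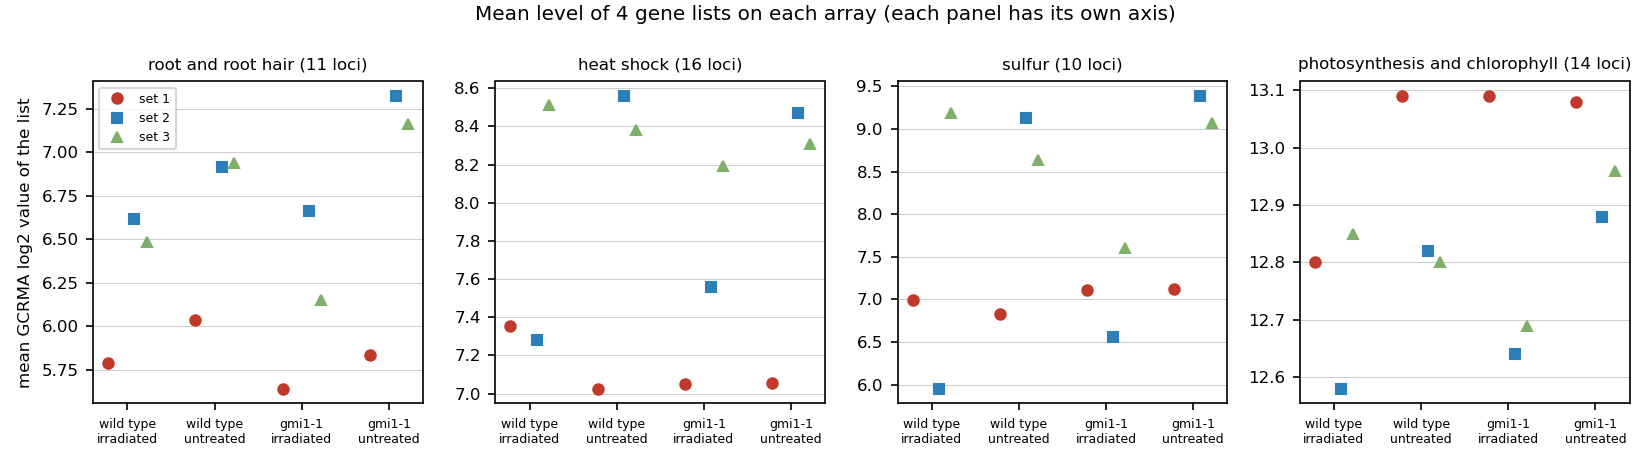
Mean GCRMA log2 value (vertical axis, 1 per panel) of the tested members of 4 gene lists on each array, by group; red circles are set 1, blue squares set 2 and green triangles set 3. Root and root hair genes are lower in set 1 (5.64 to 6.03) than elsewhere (6.15 to 7.32), heat shock and sulfur genes are also low on the irradiated arrays of set 2, and photosynthesis genes are slightly higher in set 1 except in irradiated wild type.

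Genes of photosynthesis lay slightly higher in set 1. Of 14 tested, 3 rose and none fell, where 1.63% of all loci were higher, with a median difference of 0.24. They were the antenna proteins LHCB3, at 13.73 to 14.15 in set 1 and 12.77 to 13.70 in sets 2 and 3 (difference 0.68, adjusted p = 0.0223), LHCB6 (0.70, adjusted p = 0.0309) and LHCA4 (0.57, adjusted p = 0.0267). In none of the 3 did the sets overlap, nor in PSBO2, SBPASE and PSAF, which were not called. All 4 arrays of set 1 lay above all 8 others at 180 of the 9889 loci (1.82%), 104 of them called. None was called in the wild type alone or without both gmi1-1 replicate 1 libraries, and no or 1 member was called when any single untreated array or irradiated wild type replicate 1 was left out.

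Single hormone genes were called in both directions, beside 1.63% of all loci higher and 5.52% lower, and nothing about the lists is read from them. Of 4 jasmonate genes tested, AOS and LOX2, both enzymes of jasmonate synthesis, rose, LOX2 by 0.76 (adjusted p = 0.0358), and TIFY10B, a JAZ repressor, fell by 0.75 (adjusted p = 0.0285). Of 11 auxin genes, GH3.3, which conjugates auxin, rose by 1.41 (adjusted p = 0.0399), and IAA2, IAA14 and IAA1, repressors of auxin signalling, fell by 0.96 (adjusted p = 0.00548), 0.74 (adjusted p = 0.0128) and 0.60 (adjusted p = 0.0402). Single genes fell in the lists for abscisic acid (the phosphatase ABI1, 1 of 3), cytokinin (the response regulator ARR3, 1 of 8) and gibberellin and brassinosteroid (the receptor GID1B, 1 of 9), with differences of -0.82, -1.05 and -1.06. No ethylene gene (0 of 6) and no salicylate or defence gene (0 of 6) was called.

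In the lists for metals, metabolites and the environment the calls were of 1 to 3 genes each, a share of 23.1% for iron, 27.3% for aliphatic glucosinolates, 21.4% for flavonoids and 28.6% for cold, against 7.15% of all loci in either direction. Of 13 iron genes, CYP82C4 rose, and BHLH101 and bHLH39, iron-deficiency transcription factors, fell, bHLH39 by 0.73 (adjusted p = 0.038). Of 11 aliphatic glucosinolate genes, GSTU20, a glutathione transferase, and IPMI2, an isopropylmalate isomerase subunit, rose by 1.43 (adjusted p = 0.00263) and 1.01 (adjusted p = 0.0447), and IMS2, a chain-elongating synthase, fell by 0.71 (adjusted p = 0.0279). Of 14 flavonoid genes, UF3GT, a glycosyltransferase, rose by 1.23 (adjusted p = 0.0159), and TT7 and TT5, a hydroxylase and an isomerase, fell by 1.53 (adjusted p = 0.0261) and 1.01 (adjusted p = 0.0264). UF3GT, like CYP82C4, passed the filter on low values only through set 1.

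Of 12 clock genes only PRR7 was called, beside 1.63% of all loci higher. It was at 5.78 to 6.96 in set 1 and 3.36 to 5.57 in sets 2 and 3 (difference 2.14, adjusted p = 0.00223). After quantile normalization 5 clock genes were called higher, beside 488 of all 9889 loci. In the cold list COR15B, a chloroplast cold-regulated protein, rose by 1.48 (adjusted p = 0.00164) and CT-BMY, a beta-amylase, fell by 0.86 (adjusted p = 0.0184), of 7 tested. In 6 further lists 1 gene each fell, which beside 5.52% of all loci lower is no result about the lists: TIP2;2 of 4 aquaporins (-1.67), ADH1, an alcohol dehydrogenase, of 9 hypoxia genes (-0.90), XTH15 of 4 shade genes (-1.23), FMA, a guard cell transcription factor, of 6 shoot, leaf and stomatal genes (-0.93), STP1, a sugar carrier, of 8 sugar starvation genes (-1.19), and TOZ of 12 ribosome biogenesis genes (-1.01). No gene was called in the lists for the unfolded protein response (7 tested), nitrate (13), phosphate starvation (11), touch and early stress (12), indole glucosinolates (7), G2 and M phase (10), S phase and histones (10), DNA damage (16), seed storage (3), cuticle (8), mitochondrial and detoxification stress (8) and loci with ribosomal protein symbols (28). The DNA damage list covers the radiation response itself, and its 12-array median difference of 0.83 became -0.22 in the wild type alone, which leaves out the library that goes against its label.

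The wild type arrays alone named 9 further genes, all called with an adjusted p under 0.05 on 2 arrays of set 1 against 4 of sets 2 and 3. ALMT1, a malate channel of root tips, had 4.01 and 4.34 on the irradiated and untreated arrays of set 1 and 2.53 to 3.09 in sets 2 and 3, a wild type difference of 1.39. UCC2, TIP2;2, PMI1, a plastid movement protein, and LPR1, a multicopper oxidase of the root response to low phosphate, differed by -1.37, -1.56, -1.53 and -1.63 in the wild type. In all 5 the gmi1-1 arrays of set 1 also lay beyond the gmi1-1 arrays of the other sets. CDEF1, a cutinase, DDB2, a subunit of a DNA damage recognition complex, MED19A, a Mediator subunit, and MES16, a chlorophyll-breakdown esterase, differed by -2.52, -2.34, -2.15 and -1.97 in the wild type. ALMT1 was below the filter's log2 value of 4 on all arrays of sets 2 and 3, and LPR1 on all arrays of set 1. ALMT1 thus passed the filter only through set 1, and LPR1 only through sets 2 and 3.

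In gmi1-1 the sets overlapped for DDB2, which had 5.78 and 4.67 on the irradiated and untreated arrays of set 1 and 4.75 to 6.06 in sets 2 and 3. MED19A behaved likewise, with 5.11 and 4.43 in set 1 and 4.80 to 5.37 in sets 2 and 3. Each of these 9 calls was lost when untreated wild type replicate 1, 2 or 3 or irradiated wild type replicate 1 was left out. With the replicate number as a block 8 of the 9 were lost, with median centring 6, without irradiated wild type replicate 3 also 6, and with quantile normalization 3.

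Whether the set difference itself depended on genotype or treatment was tested by interaction terms in the 12-array limma fit. None of the 9889 loci was called for set by genotype, beside 475 at an unadjusted p under 0.05. The 3 loci with the smallest p were AT5G53800, CDEF1 and AT5G58120, with a smallest adjusted p of 0.193, and CDEF1 had a difference of gmi1-1 minus wild type of 2.15. Without irradiated replicate 1 of either genotype the count was 40. Both omissions leave the same contrast, that between the untreated genotypes, which rests on the library that goes against its label.

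For set by treatment 5 loci (0.0506%) were called, and in all 5 the set difference was more negative in untreated seedlings; 2 loci were called after quantile normalization and 1, BT5, after median centring. BT5, a BTB and TAZ domain protein, had 6.11 in irradiated and 5.21 in untreated wild type of set 1, against 5.47 and 6.07 in irradiated and 8.83 and 9.04 in untreated wild type of sets 2 and 3. Irradiated minus untreated, BT5 thus differed by 0.90 in wild type of set 1 and by -3.36 and -2.97 in sets 2 and 3. In gmi1-1 as labelled the same differences were 3.49 in set 1, and -2.59 and -3.01 in sets 2 and 3. The 3.49 is taken from the library that goes against its label, so it is no measure of the response to irradiation. That library enters the interactions of all 5 loci. The interaction was 5.18 ± 0.49 (SE; limma adjusted p = 0.0103).

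ACHT5, an atypical thioredoxin of chloroplasts, had 4.70 in irradiated and 4.35 in untreated wild type of set 1, against 3.62 and 4.68 in irradiated and 7.91 and 8.64 in untreated wild type of sets 2 and 3. Its interaction was 4.65 ± 0.55 (adjusted p = 0.0269). XTH13, BEE3 and the locus AT3G53250 had interactions of 3.52, 3.41 and 3.20 (adjusted p = 0.0397, 0.0397 and 0.0158). AT3G53250 reached the filter's log2 value of 4 only on the untreated arrays of sets 2 and 3. XTH13 reached it only there and on the untreated wild type array of set 1, at 4.57. Both thus passed the filter only through the untreated arrays of sets 2 and 3, and their p-values are a description. In wild type, irradiated minus untreated was -1.33 for XTH13 in set 1, against -4.09 and -4.39 in sets 2 and 3. It was -0.56 for BEE3 in set 1, against -3.86 and -3.08. In all 5 loci the untreated wild type array of set 1 was more than 2 log2 units below the untreated wild type arrays of the other sets and within 2 units of irradiated wild type. Leaving out either replicate 1 library of gmi1-1 left none of the 5 called. Both omissions leave the same contrast, that between irradiated and untreated wild type, so they are 1 check.

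**Figure D5:**
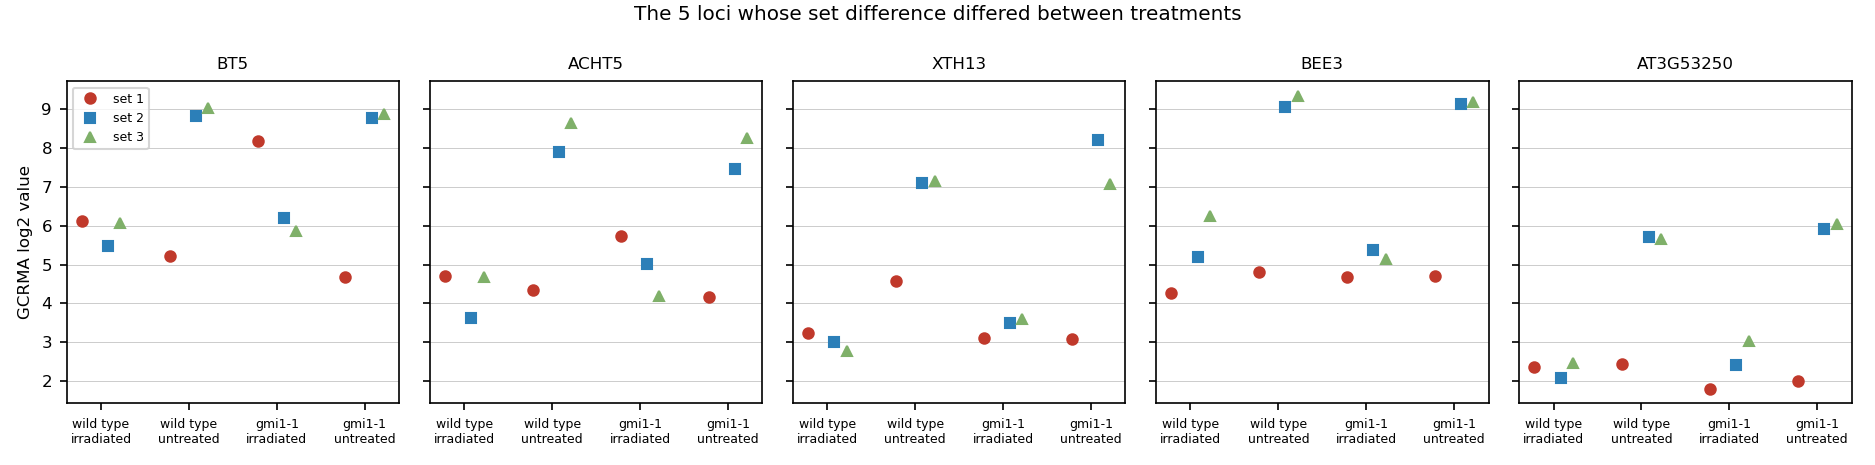
GCRMA log2 values (vertical axis, shared) of the 5 loci whose set difference differed between treatments, by group; red circles are set 1, blue squares set 2 and green triangles set 3. On arrays labelled untreated, set 1 lies far below sets 2 and 3 (BT5 at 5.21 in wild type, against 8.83 and 9.04). In irradiated wild type BT5 lies at 6.11 in set 1, against 5.47 and 6.07, and BEE3 at 4.26, against 5.19 and 6.26. The untreated gmi1-1 array of set 1 is the library that goes against its label. After quantile normalization 2 loci were called and after median centring 1.

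The treatments also differed in the number of calls when fitted alone. Untreated arrays gave 2468 loci (531 higher, 1937 lower) and irradiated arrays gave 16 (7 higher, 9 lower), and the untreated fit includes the library that goes against its label. Such counts depend on the spread within each fit and are no test of a difference between treatments. Within the wild type, 905 loci of the untreated and 647 of the irradiated array of set 1 differed by over 1 log2 unit from the mean of the other sets. Irradiated minus untreated wild type differed by over 1 unit at 430 loci upwards and 308 downwards in set 1, 1107 and 988 in set 2, and 512 and 660 in set 3.

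Single sets were also fitted against each other in the 12 arrays. Set 1 minus set 2 gave 389 loci (3.93%), of which 68 (0.688%) were higher and 321 (3.25%) lower in set 1, and set 1 minus set 3 gave 322 (3.26%), of which 95 (0.961%) were higher and 227 (2.3%) lower. Set 2 minus set 3 gave 0 in the limma fit, with a smallest adjusted p of 0.444 and 649 loci at an unadjusted p under 0.05. The first 2 comparisons share set 1. COPT2 differed by 5.04 from set 2 and by 5.33 from set 3, and by 0.29 between set 2 and set 3 (adjusted p = 0.82).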

How the data were processed

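RNA of whole seedlings was hybridised to 12 Affymetrix arrays. The deposited table holds 1 log2 value per locus and array, made by the authors with GCRMA, per the submitters' processing notes (version not given in the sources used here). Background correction, normalization and probe summaries were thus set before deposit, and the deposited values lie between -1.06 and 15.1 (log2). Arrays have no read depth; the number of arrays limits the precision.

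Names came from a RefSeq table of the TAIR10.1 assembly, in which 16851 of 16947 loci matched. No promoter or protein sequences were used here, so the planned promoter motif count was not run. The 9889 loci with a log2 value of at least 4 on 3 or more arrays were fitted with limma 3.58.1 in R 4.3.3, with 4 group means and a term for set 1, and p-values were Benjamini-Hochberg adjusted over all of them (threshold 0.05). The interactions and the 3-level set factor were fitted likewise. On simulated data for the 12-array comparison with 9889 loci, 72 of 100 differences of 1 log2 unit and 98 of 100 of 2 units were recovered, with 9 false calls. The simulated noise was independent between arrays and had the spread of the fit itself. In the data, arrays of the same number deviated together, so these figures check the procedure and give no error rate for its calls.

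The comparison, gene lists (34, with 331 loci tested) and tests were chosen with earlier results of these data known. Another 3 lists, of copper uptake and handling, copper proteins and superoxide dismutases, were added after values had been seen. From the 34 lists 19 members were dropped because the annotation did not bear out the name, and 1 of the ribosomal symbols, RPP4, is a resistance gene. Genes were named by rule: the 15 largest differences in each direction among called loci with a symbol whose replicate 1 lay beyond both others in all 4 groups, up to 8 more in each direction from the wild type alone, up to 5 per interaction (or the 3 smallest p), list members by smallest p, and GMI1 and BRCA1 as label checks. Genes of the copper and superoxide dismutase lists, and list members outside this rule, were chosen after their values were seen. Alternatives covered the low-value filter, scaling, variance prior, array weights, the replicate block, and leaving out arrays.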

Additional observations from a re-analysis of the deposited data

Results flagged for a closer look

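Among the 4 arrays of set 1, 86 values (levels of named genes, list means and array statistics) were checked for an array far from the other 3, and 12 stood apart, where chance alone marks about 1 in 20; the 4 arrays differ in genotype and treatment. On irradiated wild type replicate 1, PDF2.1 was 8.46 (others 9.40 to 9.58), scpl31 4.29 (4.73 to 4.79), AGP3 3.35 (2.59 to 2.71) and GMI1 9.97 (1.44 to 2.53). On the same array the mean of the heat shock list was 7.35 (others 7.03 to 7.06), that of the photosynthesis list 12.8 (13.08 to 13.09), and the array median 4.57 (4.51). On untreated wild type replicate 1, EXT13 was 4.62 (others 3.05 to 3.16), XTH13 4.57 (3.07 to 3.24), BRCA1 2.78 (10.54 to 11.38), and the mean of the iron list 9.25 (8.80 to 8.87). On irradiated gmi1-1 replicate 1, MED19A was 5.11 (others 4.34 to 4.43). The set difference differed between irradiated and untreated seedlings by the interaction term, irradiated minus untreated, for BT5 (5.18), ACHT5 (4.65), XTH13 (3.52), BEE3 (3.41) and AT3G53250 (3.20).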

How the results depend on the processing

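The 12-array count of 707 stayed within 1.5 times under both other filters, quantile normalization, median centring, an intensity trend, a robust prior and the replicate block (692 loci; equal numbers are not stated to share anything, and 11 of 12 arrays correlated best with an array of their own number in another group, which is a hint from the data). It became 2853 with array weights, 1139 without irradiated replicate 2 of both genotypes, 199 without both gmi1-1 replicate 1 libraries, 2468 in untreated, 16 in irradiated, 44 in wild type and 13 in gmi1-1 arrays alone, and 206 to 1416 without single arrays. The wild type count of 44 became 79 with no filter, 136 with a filter at a log2 of 6, 29 with median centring, 197 with an intensity trend, 13 with the replicate block and 70 as a term of the 12-array fit. Without single arrays it was 0 (either replicate 1) to 1502 (irradiated replicate 2), and 2 without untreated replicate 2 or 3. The gmi1-1 count of 13 (0.131%) became 62 with median centring, 37 with an intensity trend, 142 as a term of the 12-array fit, and 0 to 159 without single arrays. The set by genotype count ranged from 0 to 40 without single arrays. Set by treatment gave 2 after quantile normalization, 1 after median centring, and 0 to 164 without single arrays (0 without either gmi1-1 replicate 1, 164 without either wild type replicate 1, 163 without irradiated wild type replicate 3, 1 or 2 without untreated wild type replicate 2 or 3 or irradiated gmi1-1 replicate 3). Leaving out either replicate 1 of a genotype leaves the same contrast, that of the other genotype. The 164 thus rests on gmi1-1 with the library that goes against its label. Set 1 minus set 3 gave 582 and 571 under these scalings. Without single arrays it gave 74 to 551, set 1 minus set 2 gave 120 to 895 and set 2 minus set 3 gave 0 to 2. Where an alternative leaves out arrays, fewer arrays enter the fit; otherwise the cause was not tested. Over 804 values of the 30 genes named from 12 arrays, none changed sign and 119 were no longer called. Of these genes 23 stayed called without each array in turn, and COPT2, ZIP2, PDF2.1, YSL2, BCB and CSD2 under all 26 alternatives other than gmi1-1 alone. Of 37 list medians, 6, all under 0.12 in size, changed sign under a scaling.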
